A study of Penicillium oxalicum with 6 samples.

Results

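The peptidases of Penicillium oxalicum outside the proteasome were described across 3 strains grown in glucose. Members were the genes whose Gene Ontology function in the deposited table contains peptidase activity, less those annotated to the proteasome (22 genes). Penicillopepsin and penicillolysin were named in the rule as well and also carry such a term. This gave 116 of the 8902 genes with an identifier, of which 56 had a product name and 60 had only a hypothetical name or a locus name of another Penicillium as best match. The best-match text placed 15 as secreted and 16 as intracellular, and left 85 unplaced.

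Peptidases cut peptide bonds, endopeptidases inside a chain and exopeptidases from its ends. They are sorted by the group that does the cutting into aspartic, serine, cysteine and metallopeptidases. Moulds secrete acid aspartic endopeptidases together with carboxypeptidases and tripeptidyl peptidases to digest protein outside the cell, keep others in the vacuole to recycle protein, and use processing peptidases to remove signal and propeptides from secreted and imported proteins. Secreted peptidases of such fungi are known to answer to the supply of nitrogen and carbon and to ambient pH.

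The strains were Dmtr23B, in which mtr23B is knocked out, Rmtr23B, in which the gene is complemented, and M12, a uracil auxotroph with the allele pyrGQ226* that derives from the wild type 114-2 and is taken here as the parent. The labels do not say which pyrG allele Dmtr23B and Rmtr23B carry, how mtr23B was removed and returned, or how many clones were used. Conidia of each strain were pre-cultured in 2% glucose for 20 h (Vogel's salts, 30 °C), and the washed mycelia then spent 24 h in new medium, again with 2% glucose. Each strain gave 1 library of digital gene expression tags, in which a 17-bp tag beyond a CATG site stands for a transcript. There is no replicate culture, so no difference given here has a replicate check. Libraries of the same strains in cellulose and wheat bran were not analysed by gene here. In those columns 74 genes named as ribosomal proteins had median levels of 8.14, 8.72 and 12.2 TPM in Dmtr23B, Rmtr23B and M12, against 143, 104 and 86.8 TPM in glucose. Across the 8902 genes Spearman's rho between a column of that medium and a glucose column lay between -0.009 and 0.002 in 9 pairs of libraries, against 0.851 to 0.945 between glucose columns, so the values there did not track the identifiers as the glucose values do.

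Tags assigned to genes numbered 2013784 in Dmtr23B, 2147854 in Rmtr23B and 2048846 in M12, which is 60.1%, 63.9% and 61.0% of the library totals. Levels are in TPM, here a gene's tags over the library total with no division by length, and 3 tags correspond to 0.893 to 0.895 TPM. The cell wall transcript PDE_09832 alone held 0.280%, 16.6% and 8.26% of these totals. Of 7 markers of conidiophores and conidia edgeR tested 6. Of these 4 fell in Dmtr23B (66.7%, against 2.72% of all genes): the regulator BrlA and the pigment genes Arp1, Ayg1 and Arb2. Abr1, at 14.3, 61.9 and 52.4 TPM in Dmtr23B, Rmtr23B and M12, did not pass (edgeR adjusted p = 0.0523). WetA, at 2.39, 1.49 and 0.89 TPM in the same order, was not tested. The summed level of all 7 was 1465 TPM in Dmtr23B, 1980 TPM in Rmtr23B and 2781 TPM in M12, most of it from the RodA-like hydrophobin, which edgeR did not call and which had 1388, 812 and 1587 TPM. The other 6 summed to 76.4, 1168 and 1194 TPM in the same order. In these bulk samples fewer cells of a type and less RNA per cell cannot be told apart, and the part of conidiation in the results below was not tested. No product name in the table holds mtr23B, so its own level was not used to check the labels.

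A member was called apart in a strain when its TPM + 1 differed 2-fold or more in the same direction from each of the other strains and 1 or more of the 3 libraries reached 10 TPM. Of the 116 members 94 reached 10 TPM (81.0%, against 64.7% of all genes), 22 did not, and PDE_06330 had no tag in any library. Ratios are given with exact binomial 95% intervals, which cover counting error only. The table also holds counts, so edgeR's quasi-likelihood test set Dmtr23B against Rmtr23B and M12, taken as 2 samples that carry mtr23B. Its spread is the one between those strains and the lone Dmtr23B library is assumed to vary like them.

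Most peptidase transcripts were not apart in the deletion strain. The exceptions were 4 members that stood lower, 3 of them secreted proteins led by penicillopepsin, and 3 that stood higher, the secreted tripeptidyl peptidase A, the propeptide-cutting KexB and an aspartic endopeptidase without a product name. The 3 higher members are 3.19% of the 94, against 10.8% of all genes. The 4 lower members are 4.26%, against 7.82% of all genes. Thus the share was below that of all genes in both directions, 7.45% against 18.6% for either direction. Scaling by TMM factors lowered the share of all genes to 16.4% for either direction and left that of the members at 7.45%. With Rmtr23B left out, 5 members were higher in Dmtr23B than in M12 (5.56%, against 14.6% of all genes) and 8 lower (8.89%, against 10.2% of all genes). With M12 left out, 24 were higher in Dmtr23B than in Rmtr23B (26.4%, against 25.9% of all genes) and 8 lower (8.79%, against 11.1% of all genes). The 7 named above are within both sets, which follows from how they were called.

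By edgeR, 0 of 109 members tested rose in Dmtr23B at an adjusted p under 0.05, against 1.09% of all genes, and 2 fell, PDE_02342 and penicillolysin, which is 1.83% against 2.72% of all genes. An unadjusted edgeR p under 0.05 was found for 13 members (11.9%, against 16.2% of all genes). DESeq2 likewise called 0 members higher (0.999% of all genes) and called 3 lower (4.27% of all genes), the same 2 and penicillopepsin. No fit could leave out Rmtr23B or M12, since no degrees of freedom would remain.

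**Figure D1:**
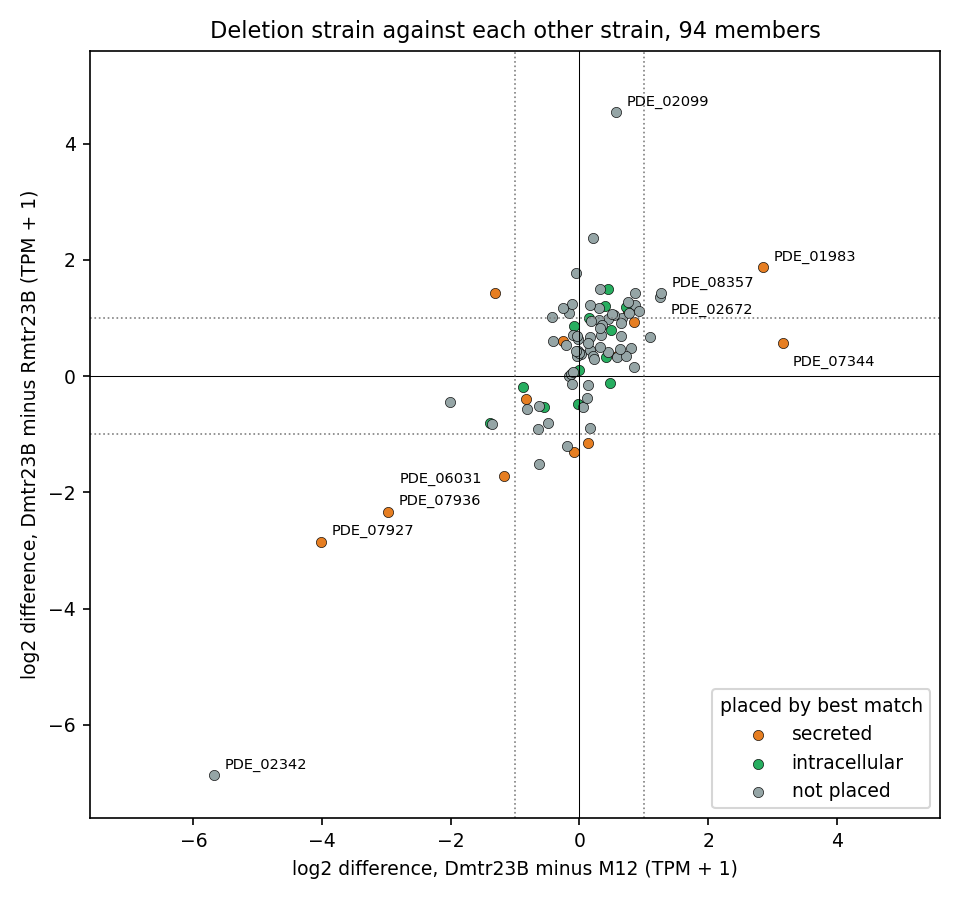
Each point is 1 of the 94 members at 10 TPM or more, with the log2 difference of Dmtr23B from M12 on the x axis and from Rmtr23B on the y axis, both of TPM + 1, coloured by place and with dotted lines at 2-fold. The 4 members at lower left and the 3 at upper right beyond both lines are the ones apart in Dmtr23B, and PDE_02342 lies farthest from 0.

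Penicillopepsin (PDE_07927), a secreted acid aspartic endopeptidase of Penicillium, was the member that differed most in absolute level. It had 697 TPM in Dmtr23B, 5013 TPM in Rmtr23B and 11255 TPM in M12, from 2335, 16841 and 37812 tags. The strains were thus in the order deletion, complemented, parent, with the complemented strain well short of the parent. The ratio was 0.139 (0.133 to 0.145) for Dmtr23B over Rmtr23B and 0.0619 (0.0593 to 0.0646) for Dmtr23B over M12, and also 0.445 (0.437 to 0.454) for Rmtr23B over M12. It did not pass edgeR (adjusted p = 0.109) and passed DESeq2 (adjusted p = 2.9e-07), so its call depends on the tool. Among all genes it ranked 104 in Dmtr23B, 7 in Rmtr23B and 2 in M12.

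Penicillolysin (PDE_07936) is a small secreted metalloendopeptidase of the deuterolysin kind. It had 3.58 TPM in Dmtr23B, 22.0 TPM in Rmtr23B and 35.1 TPM in M12, from 12, 74 and 118 tags. The order of the strains was that of penicillopepsin, at a far lower level. It fell in Dmtr23B by edgeR (log2 fold change -3.32, adjusted p = 0.0317), with a ratio of 0.163 (0.0804 to 0.301) to Rmtr23B and 0.102 (0.0512 to 0.185) to M12.

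PDE_02342, annotated with peptidase activity and no catalytic type, had the largest fold difference among the members. It had 3.28 TPM in Dmtr23B, 498 TPM in Rmtr23B and 218 TPM in M12, from 11, 1673 and 734 tags. It was near the detection floor in the deletion strain and moderately abundant in both others, higher in the complemented strain than in the parent. It fell by edgeR (log2 fold change -7.14, adjusted p = 0.0174), with a ratio of 0.00659 (0.00328 to 0.0118) to Rmtr23B and 0.0150 (0.00747 to 0.0270) to M12. Its neighbours by locus number, PDE_02341 with 170, 198 and 155 TPM and PDE_02343 with 129, 129 and 92.9 TPM in Dmtr23B, Rmtr23B and M12, were not apart in any strain.

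Carboxypeptidase S1 (PDE_06031), which trims residues from the carboxyl end of a chain, was the remaining member lower in the deletion. It had 25.7 TPM in Dmtr23B, 86.9 TPM in Rmtr23B and 59.2 TPM in M12. The ratio was 0.295 (0.229 to 0.377) to Rmtr23B and 0.433 (0.332 to 0.561) to M12, and edgeR did not call it (adjusted p = 0.124).

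**Figure D2:**
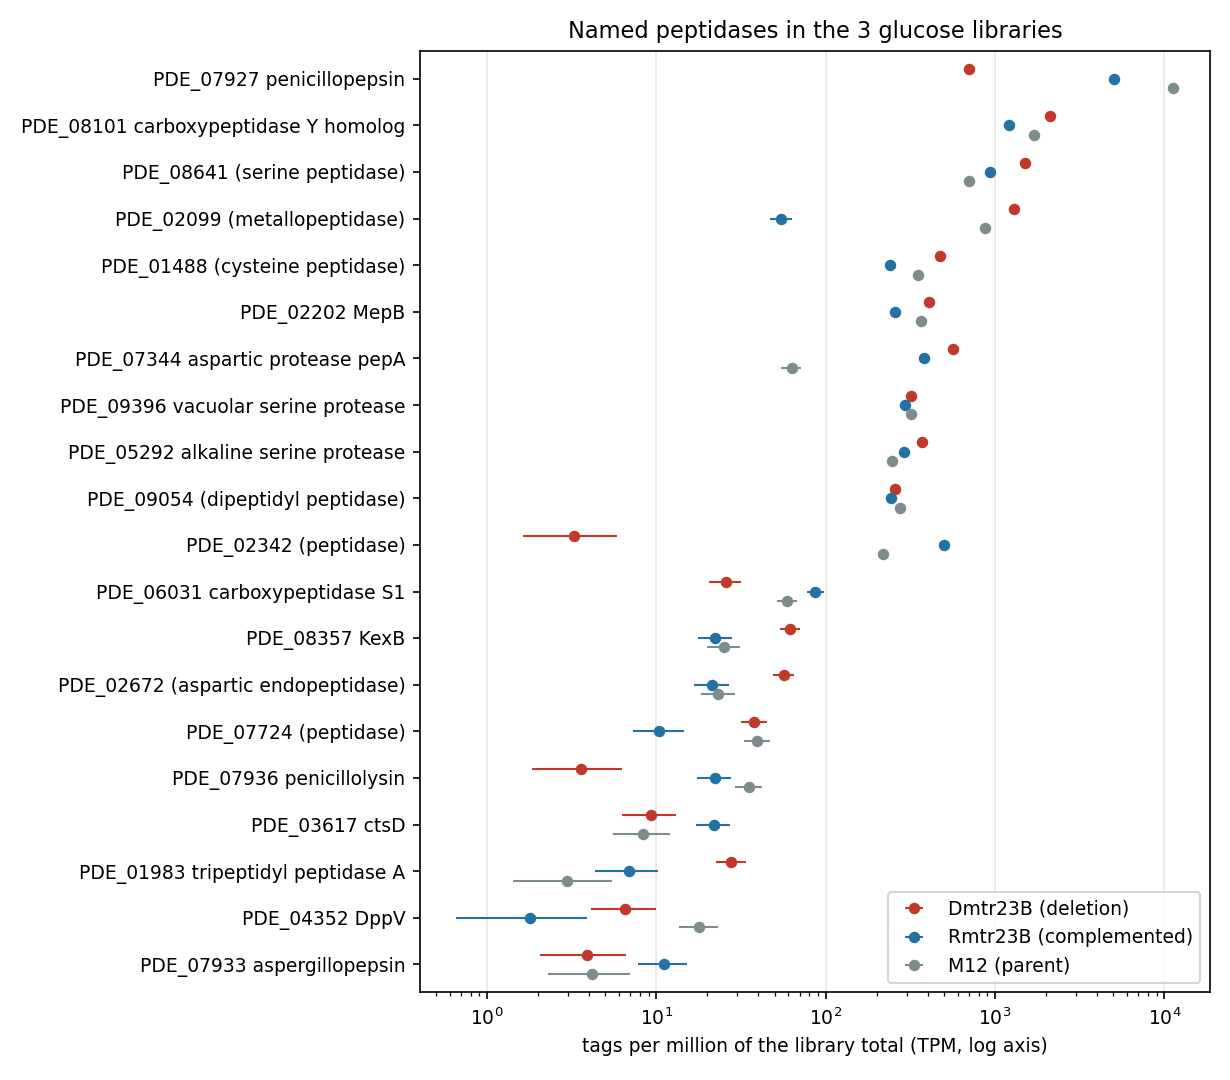
TPM on a log axis in Dmtr23B, Rmtr23B and M12, 1 library each, for the 20 members named by rule, with exact 95% counting intervals as bars. Penicillopepsin spans 697 to 11255 TPM and PDE_02342 spans 3.28 to 498 TPM, with Dmtr23B lowest in both.

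On the higher side, tripeptidyl peptidase A (PDE_01983), which releases tripeptides from the amino end, had 27.8 TPM in Dmtr23B, 6.85 TPM in Rmtr23B and 2.98 TPM in M12. Counts were low, at 93, 23 and 10 tags, and the intervals of the ratio were wide at 4.05 (2.55 to 6.71) over Rmtr23B and 9.32 (4.85 to 20.1) over M12. Its adjusted p by edgeR was 0.118. KexB (PDE_08357), a Golgi endoprotease that cuts propeptides after pairs of basic residues, had 61.8 TPM in Dmtr23B, 22.3 TPM in Rmtr23B and 25.0 TPM in M12. PDE_02672, an aspartic endopeptidase by annotation, had a like pattern at 56.7, 21.4 and 23.2 TPM in Dmtr23B, Rmtr23B and M12. For these 2 the complemented strain was close to the parent, and edgeR called neither (adjusted p = 0.278 and 0.300). Scaling by TMM factors, which moves the median difference of all genes from 0.38 to 0.04 on the log2 scale, kept only tripeptidyl peptidase A among the higher members. KexB and PDE_02672 then lay at the threshold, with log2 differences of 1.00 and 0.96 from the mean of the others, and median-ratio scaling kept KexB. The same scaling kept all 4 lower ones and added metacaspase-1B and PDE_07110.

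The secreted members did not move as a block. Of 15, 13 reached 10 TPM, 1 of them higher in Dmtr23B (7.69%, against 10.8% of all genes) and 3 lower (23.1%, against 7.82% of all genes), and the other 9 were not apart in that strain. By edgeR 1 of 14 tested fell (7.14%, against 2.72% of all genes) and 0 rose. Their median log2 difference between Dmtr23B and the mean of the others was 0.06, which is 0.32 below the median of all genes. These values hold for members placed by name, of which 3 are annotated as extracellular. The 8 members annotated as extracellular had a median of 0.41. Of these, 1 was higher in Dmtr23B (12.5%, against 10.8% of all genes) and 0 lower (against 7.82% of all genes). The median of the 13 intracellular members at 10 TPM or more was 0.37, close to the 0.38 of all genes. Of these 13, 0 was apart in the deletion strain, against 18.6% of all genes for either direction. Whether 0 of 13 genes differs from that share was not tested. The secreted median changed sign to -0.23 under median-ratio scaling, where the median of all genes was 0.04.

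The aspartic endopeptidases were split by strain. PepA (PDE_07344), described as a penicillopepsin-like aspartic protease, had 568 TPM in Dmtr23B, 380 TPM in Rmtr23B and 62.8 TPM in M12. It was the 1 member in which M12 stood 2-fold below both other strains, with ratios of 9.04 (7.84 to 10.5) for Dmtr23B over M12 and 6.05 (5.22 to 7.03) for Rmtr23B over M12. The Dmtr23B and Rmtr23B libraries were closer, with an interval of 1.39 to 1.61 for their ratio, and its adjusted p by edgeR was 0.700. AP1 (PDE_08305) had 55.2, 73.2 and 98.8 TPM in Dmtr23B, Rmtr23B and M12, the order of penicillopepsin within a 2-fold range. CtsD (PDE_03617) had 9.25, 21.7 and 8.33 TPM and the aspergillopepsin PDE_07933 had 3.88, 11.0 and 4.17 TPM in the same order, both highest in the complemented strain. A second aspergillopepsin, PDE_06014, had at most 1.79 TPM. Among the 6 members at 10 TPM or more annotated as aspartic endopeptidases the median log2 difference lay 1.05 below that of all genes, and PDE_02672 alone was above 0. PepA, ctsD and OpsB carry a broader term and are not among those 6.

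Sed1, aorsin and the alkaline serine protease PDE_05292 had their highest values in the deletion strain without being apart. Sedolisin sed1 (PDE_03287), a tripeptidyl peptidase, had 19.7, 8.63 and 11.3 TPM in Dmtr23B, Rmtr23B and M12. Aorsin (PDE_03636), an acid serine peptidase first known from Aspergillus, had 57.0, 29.5 and 31.3 TPM in the same order. The alkaline serine protease PDE_05292, which the table also annotates to the ribosome, had 368, 291 and 246 TPM. Sed3 (PDE_01866), another tripeptidyl peptidase, had 6.86, 1.19 and 1.79 TPM and so stayed under 10 TPM. Dipeptidyl peptidase DppV (PDE_04352), which releases dipeptides, had 6.56, 1.79 and 17.9 TPM in Dmtr23B, Rmtr23B and M12, highest in the parent and 2-fold below both others in Rmtr23B. OpsB (PDE_01021), an aspartic-type endopeptidase by its description, had 15.5, 9.82 and 18.8 TPM in the same order and was not apart.

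Summed over all members, peptidase tags took 1.31% of the Dmtr23B library, 1.32% of the Rmtr23B library and 2.10% of the M12 library. In TPM these sums were 13108 (12986 to 13230), 13167 (13046 to 13290) and 20992 (20839 to 21146). Penicillopepsin made up 5.32%, 38.1% and 53.6% of them. The intervals of Dmtr23B and Rmtr23B overlap, and both lie below that of M12. Without penicillopepsin M12 was no longer highest: the sum was 12411 TPM in Dmtr23B, 8155 TPM in Rmtr23B and 9737 TPM in M12. The secreted members summed to 1865 TPM in Dmtr23B, 5958 TPM in Rmtr23B and 11854 TPM in M12, and without penicillopepsin to 1168, 945 and 599 TPM. Without that 1 transcript the secreted sums thus had the opposite order of strains. PepA (PDE_07344) alone held 568, 380 and 62.8 TPM of them in Dmtr23B, Rmtr23B and M12. PDE_02099, the most abundant of 5 members annotated as extracellular but not placed as secreted, is outside these sums at 1288, 54.5 and 867 TPM. The order was thus that of these sums, of members placed by name, and not of each secreted member. The 8 members annotated as extracellular summed to 1591, 322 and 1125 TPM in Dmtr23B, Rmtr23B and M12. The intracellular members summed to 1268, 992 and 1262 TPM and the unplaced members to 9975, 6218 and 7877 TPM in Dmtr23B, Rmtr23B and M12.

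**Figure D3:**
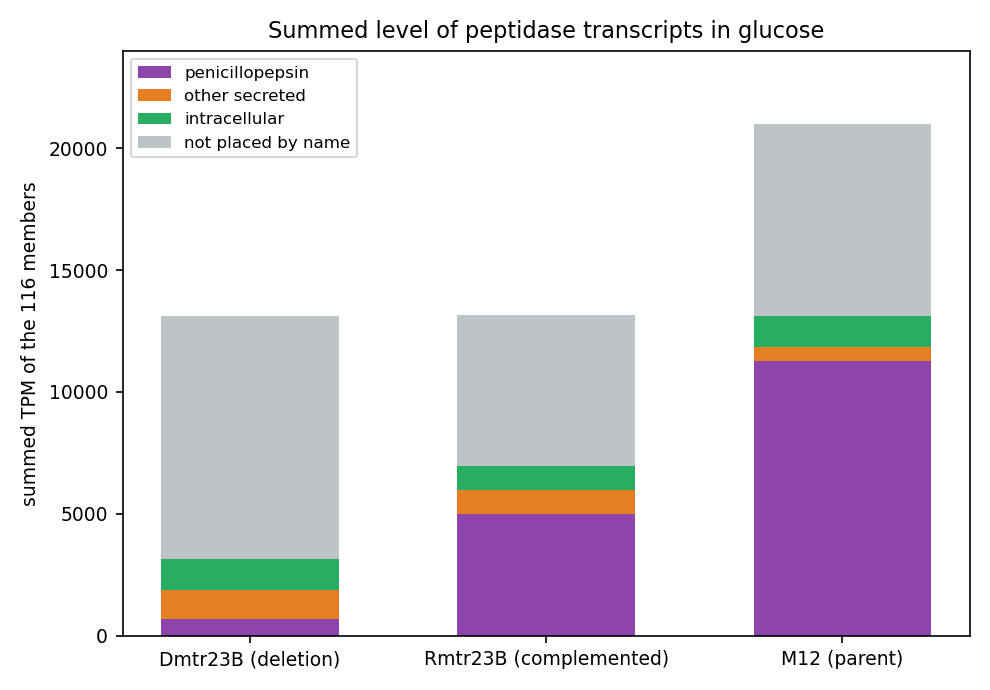
Summed TPM of the members in Dmtr23B, Rmtr23B and M12, split into penicillopepsin, the other secreted members, the intracellular members and those not placed. Penicillopepsin takes 697, 5013 and 11255 TPM of sums of 13108, 13167 and 20992 TPM.

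Among vacuolar peptidases, which recycle protein inside the cell, 0 of the 4 annotated to the vacuole was apart in any strain. Of all genes 18.6%, 10.2% and 2.92% were apart in Dmtr23B, Rmtr23B and M12, so 4 genes are too few to differ from these shares. The carboxypeptidase Y homolog (PDE_08101) had 2124 TPM in Dmtr23B, 1201 TPM in Rmtr23B and 1702 TPM in M12 and ranked 1 among the members in Dmtr23B, where penicillopepsin ranked 4. Its level in Dmtr23B was above both others without being 2-fold apart (edgeR adjusted p = 0.926). The serine protease PDE_09396, vacuolar by its description only and not among the 4, had 319, 295 and 321 TPM in the same order and was nearly even. The vacuolar aspartyl aminopeptidase Lap4 (PDE_09550) had 127, 143 and 232 TPM, highest in M12. PDE_01488, a cysteine peptidase annotated to autophagy and to the cytoplasm, is also not among the 4 and had 475, 239 and 351 TPM, lowest in Rmtr23B.

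Other abundant members had no 2-fold difference tied to the deletion. PDE_08641, a serine endopeptidase by annotation with no product name, had 1492, 932 and 698 TPM in Dmtr23B, Rmtr23B and M12, above M12 by more than 2-fold and above Rmtr23B by less. The metallopeptidase MepB (PDE_02202) had 410, 257 and 366 TPM, and the dipeptidyl peptidase PDE_09054 had 258, 244 and 276 TPM. None of these passed edgeR.

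The processing peptidases of the secretory pathway had moderate to low levels. SEC11C (PDE_05060), the catalytic subunit of signal peptidase, had 51.3 TPM in Dmtr23B, 22.0 TPM in Rmtr23B and 30.7 TPM in M12. KexA (PDE_06812), a carboxypeptidase that trims the basic residues left by KexB, had 25.4, 11.6 and 17.6 TPM in the same order. Ste24 (PDE_03682), which cuts prenylated CaaX proteins, had 119, 51.2 and 90.2 TPM. In all 3, Dmtr23B was more than 2-fold above Rmtr23B and less than 2-fold above M12. GPI anchor transamidase (PDE_00462), which joins proteins to their lipid anchor, was even at 24.2, 18.8 and 24.7 TPM.

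Among the peptidases of the cytosol and of regulation, methionine aminopeptidases remove the first residue of new proteins. One, PDE_05423, had 118, 93.8 and 88.4 TPM in Dmtr23B, Rmtr23B and M12, and another, PDE_02857, had 107, 53.0 and 96.7 TPM. The ubiquitin-releasing enzyme HAUSP (PDE_09470) had 85.3, 48.8 and 60.1 TPM and the SUMO protease family member PDE_00339 had 27.8, 13.4 and 17.3 TPM, both highest in Dmtr23B. The metacaspases, cysteine peptidases related to caspases, differed from each other. Metacaspase-1 (PDE_02674) had 121, 65.5 and 128 TPM, whereas metacaspase-1B (PDE_02061) had 17.9, 32.2 and 48.5 TPM and was lowest in Dmtr23B (edgeR adjusted p = 0.170). The AAA protease Yta12 (PDE_05380) of the mitochondrion had 11.6, 17.3 and 17.6 TPM and is not among the 8 members annotated there. Those 8 summed to 517, 279 and 436 TPM in Dmtr23B, Rmtr23B and M12, of which PDE_01500 held 305, 107 and 245 TPM.

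By annotated class, the median log2 difference of Dmtr23B from the mean of the others was highest in the cysteine peptidases. It was 0.26 above that of all genes there and 1.05 below it in the 6 annotated aspartic endopeptidases, the lowest class. That class leaves out aspartic proteases that carry a broader peptidase term or none. Their log2 differences were 1.87 for PepA, 1.90 for PDE_01852, 1.82 for PDE_09250, 1.88 for PDE_07930, 0.18 for OpsB and -0.51 for ctsD. The low median thus holds for the annotated class and not for all aspartic proteases. The median log2 difference was 0.35 for 18 aminopeptidases, 0.31 for 21 metallopeptidases, 0.37 for 14 serine peptidases, 0.55 for 7 serine carboxypeptidases and 0.64 for 10 cysteine peptidases, against 0.38 for all genes. It was 0.61 for 3 dipeptidyl peptidases and 0.43 for 15 peptidases of no given type. Of the 10 cysteine peptidases 9 were above 0 (90.0%, against 68.3% of all genes), and 8 under median-ratio scaling (80.0%, against 52.2% of all genes). The medians of aminopeptidases and metallopeptidases turned to -0.00 and -0.04 under median-ratio scaling.

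**Figure D4:**
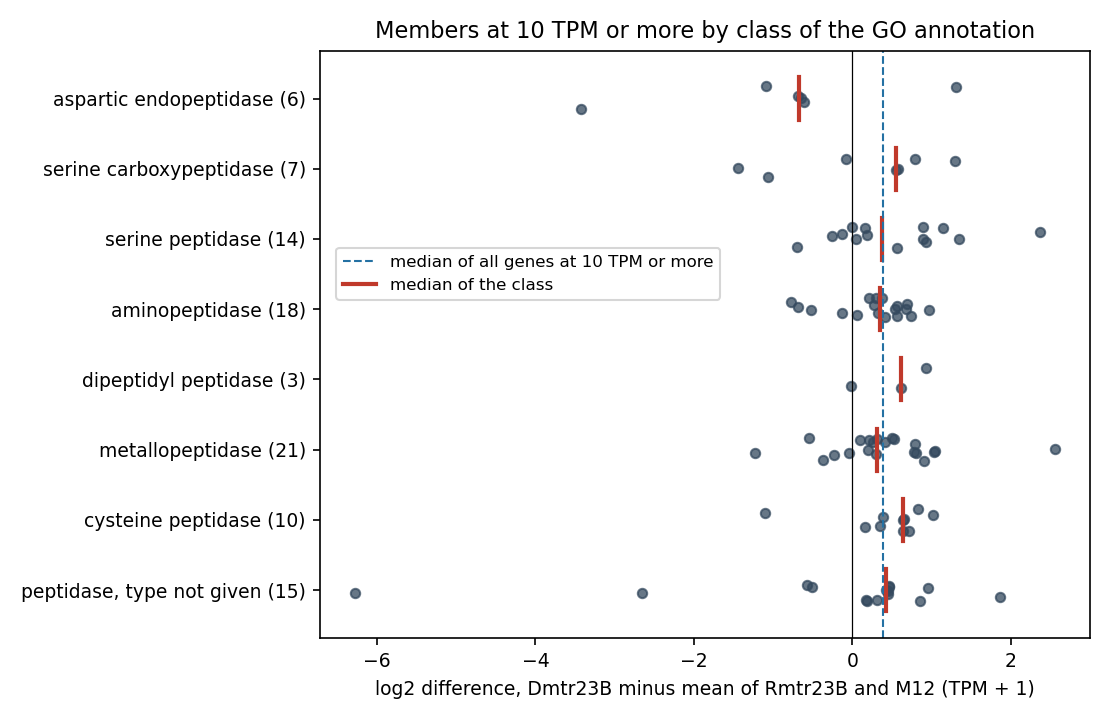
Difference of Dmtr23B from the mean of Rmtr23B and M12 on the log2(TPM + 1) scale for each member at 10 TPM or more, by annotated class, with the class median and the median of all genes (0.38). The 6 annotated aspartic endopeptidases have the lowest class median, -0.67, and PepA is shown with the peptidases of no given type.

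The complemented strain and the parent, which both carry mtr23B, also differed from each other. Of 91 members at 10 TPM in Rmtr23B or M12, 6 were at least 2-fold higher in Rmtr23B (6.59%, against 4.52% of all genes) and 13 were at least 2-fold lower (14.3%, against 10.8% of all genes). Against both other strains, Rmtr23B was apart in 15 members (16.0%, against 10.2% of all genes), lower in 11 (11.7%, against 7.11% of all genes) and higher in 4 (4.26%, against 3.06% of all genes). M12 was apart in 4 (4.26%, against 2.92% of all genes). It was higher in 3 (3.19%, against 2.35% of all genes) and lower in 1, PepA (1.06%, against 0.573% of all genes).

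The widest such gap was in PDE_02099, a metallopeptidase annotated as extracellular. It had 1288 TPM in Dmtr23B, 54.5 TPM in Rmtr23B and 867 TPM in M12. The complemented strain was low, at a ratio of 0.0628 (0.0538 to 0.0730) to M12, whereas Dmtr23B and M12 were within 2-fold. Its tags were 4318, 183 and 2912, and edgeR, which counts Rmtr23B and M12 together, gave an adjusted p of 0.700. PDE_01500, a mitochondrial metallopeptidase by annotation, had 305, 107 and 245 TPM in Dmtr23B, Rmtr23B and M12, and PDE_07724 had 37.9, 10.4 and 39.3 TPM. In both, Rmtr23B alone was low.

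**Figure D5:**
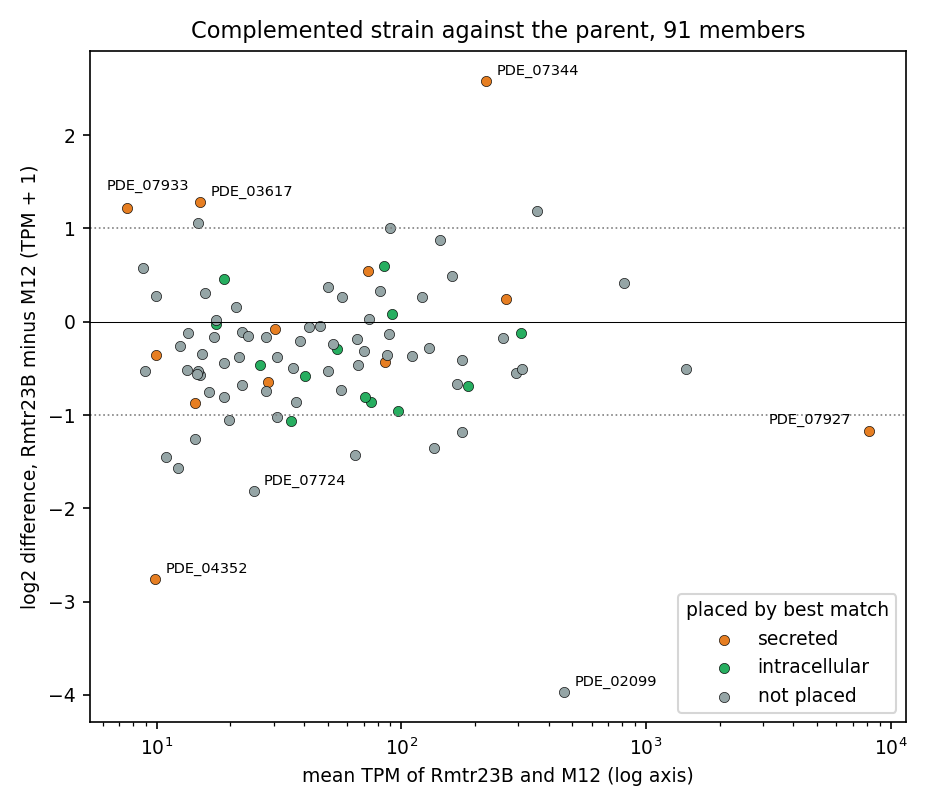
Log2 difference of Rmtr23B from M12 (TPM + 1) against the mean TPM of these strains on a log axis, for the 91 members at 10 TPM or more in either, with dotted lines at 2-fold. The 13 points below the band include PDE_02099, at 54.5 TPM in Rmtr23B and 867 TPM in M12, and the 6 above it include PepA (PDE_07344), at 380 TPM in Rmtr23B and 62.8 TPM in M12.

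Across the 3 libraries 54 of the 94 members at 10 TPM or more lay within a 2-fold range on the TPM + 1 scale (57.4%), against 3171 of 5756 genes (55.1%).

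Members close together by locus number could have unlike patterns. Penicillopepsin, the aspergillopepsin PDE_07933 and penicillolysin fall within 10 consecutive loci, PDE_07927 to PDE_07936, and the first and last were lower in Dmtr23B while PDE_07933 was highest in Rmtr23B. Between them PDE_07930, described as a yapsin-type aspartic protease but without the peptidase term, had 16.1, 4.46 and 2.98 TPM in Dmtr23B, Rmtr23B and M12, and PDE_07935 had 23.3, 75.6 and 117 TPM. PDE_06308 and PDE_06309 are adjacent, and both are annotated with helicase activity in the same spliceosomal complex beside their peptidase terms. Reads of such neighbours could not be checked for overlap. Their values ran opposite ways: 182, 75.9 and 196 TPM for PDE_06308 against 51.6, 120 and 59.2 TPM for PDE_06309 in Dmtr23B, Rmtr23B and M12. PDE_06309 is 1 of 9 members whose description names another kind of protein. Of these, 0 of the 5 at 10 TPM or more was apart in the deletion strain, against 18.6% of all genes, and 5 are too few to differ from that share.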

How the data were processed

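One table of the whole series was used. It holds tag counts per gene, deposited without normalisation per the file headers, and deposited TPM values. Recomputed from the counts and the stated library totals, with no gene length, these TPM match within 0.005. The sources used here do not give the mapper, genome build, strand use or treatment of shared tags, so family members and overlapping genes are uncertain, as are PDE_06178 and PDE_06179, which share a best match. No molecular identifiers are mentioned, and intervals (exact Clopper-Pearson for shares) cover counting error only. The cellulose and wheat bran columns, with 282 of 9184 rows lacking an identifier, were not used by gene.

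Groups came from sample titles. Members and lists were chosen with earlier results of these data known. The size rule was 2-fold on TPM + 1 with a minimum of 10 TPM (33.5 to 33.6 tags). edgeR 4.0.16 (quasi-likelihood, TMM, filterByExpr, Benjamini-Hochberg over 7351 genes, two-sided, threshold 0.05) called 80 genes higher and 200 lower in Dmtr23B. DESeq2 1.42.0 was the alternative, in R 4.3.3, with Python 3.11.15. No label tells of separate cultures, so a p-value reflects the spread between the Rmtr23B and M12 libraries alone. That spread holds differences between these strains and may in part be technical. "Rose" and "fell" refer to edgeR calls.

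The 20 genes named by rule were penicillopepsin, penicillolysin, the 10 members of highest mean TPM, those past edgeR, those apart in Dmtr23B and the 3 in each direction with the largest difference of Rmtr23B from M12. Other genes were named as examples of their group after their values were seen. Alternatives were other pseudocounts, scalings, minimums, fold thresholds and strain pairs, and another filter and normalisation for edgeR. A library total without PDE_09832 was added after seeing the data. A RefSeq gene table of another strain matched 0 of the 8902 identifiers, so no position or sequence is given.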

Additional observations from a re-analysis of the deposited data

How the results depend on the processing

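No paired analysis was possible because each strain has 1 library. For the 7 members apart in Dmtr23B the difference from the mean of the others kept its sign under other pseudocounts and scalings. Members chosen for a 2-fold difference could hardly change sign, so this is no check of them. Of the 13 other named genes 2 with values near 0 changed sign, PDE_04352 and PDE_09396. Calls of these 13 in Rmtr23B or M12 were not rerun gene by gene. The secreted, aminopeptidase and metallopeptidase medians changed sign under median-ratio scaling, at values given above. The count of members higher in Dmtr23B, 3 as reported, was 1 with TMM scaling (5.72% of all genes) and 1 at 3-fold (3.72% of all genes). At 1.5-fold 15 of 94 members were higher, against 1538 of all 5756 genes. The count was 5 against M12 alone and 24 against Rmtr23B alone, with the shares of all genes given above. The count lower, 4 as reported, was 8 at 1.5-fold (667 of all 5756 genes) and 8 against either strain alone. Median-ratio scaling gave 2 higher and 6 lower (5.76% and 10.7% of all genes). The library total without PDE_09832 gave 3 higher and 6 lower (7.75% and 9.13% of all genes). Among secreted members the count higher, 1 as reported, was 0 at a minimum of 30 TPM (11.9% of all genes). It was 2 with no minimum (9.63% of all genes), 3 at 1.5-fold (1538 of all 5756 genes) and 2 against M12 or Rmtr23B alone. The secreted count lower, 3 as reported, was 5 against Rmtr23B alone.

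Members higher in Rmtr23B than in M12 numbered 6 as reported, 3 with a pseudocount of 5 or a minimum of 30 TPM, and 1 at 3-fold. Those lower numbered 13 as reported, 8 at a minimum of 30 TPM, 26 at 1.5-fold and 3 at 3-fold. As a share of assigned tags, all members summed to 21814, 20597 and 34422 TPM in Dmtr23B, Rmtr23B and M12, and the secreted members to 3103, 9319 and 19437. Without penicillopepsin the sums were 12411, 8155 and 9737 TPM, and 1168, 945 and 599 TPM for the secreted members.

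edgeR called 0 members higher and 2 lower with RLE normalisation and with a minimum of 10 tags as well. Across all genes it called 80 and 205 with RLE, 125 and 312 of 7900 with the minimum of 10 tags, and DESeq2 called 72 and 308. With 1 library per strain, an effect of the strain cannot be told apart from one of the culture or the library. The 22 members under 10 TPM were too thinly counted for the 2-fold rule.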

Other observations

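A further 18 genes are described as peptidases but carry no peptidase activity term, and 11 of them reached 10 TPM. Of these 4 were higher and 1 was lower in Dmtr23B (36.4% and 9.09%, against 10.8% and 7.82% of all genes). The gamma-glutamyltranspeptidase PDE_00595, an enzyme of glutathione breakdown, had 42.4 TPM in Dmtr23B, 5.06 TPM in Rmtr23B and 8.93 TPM in M12 and rose by edgeR (adjusted p = 0.0499). The yapsin PDE_01852 had 887, 222 and 253 TPM and the aspartic protease PDE_09250 had 545, 137 and 172 TPM in the same order, both highest in Dmtr23B and neither past edgeR.

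Of 16 amino acid permeases 10 reached 10 TPM, 7 of these stood higher in Dmtr23B (70.0%, against 10.8% of all genes), and by edgeR 3 of 14 tested rose (21.4%, against 1.09% of all genes) and 0 fell. The general amino acid permease PDE_00845, which takes up most amino acids, had 767 TPM in Dmtr23B, 3.27 TPM in Rmtr23B and 29.5 TPM in M12 (edgeR adjusted p = 0.0379). The oligopeptide transporter PDE_06899 had 94.9, 1.19 and 21.1 TPM in Dmtr23B, Rmtr23B and M12 and did not pass edgeR (unadjusted p = 0.0267), and the second of the 2 peptide transporters was not apart. By edgeR 0 of 5 autophagy genes, 0 of 2 peptidase inhibitors and 0 of the 13 ubiquitin ligases and conjugating enzymes tested changed, and none of these had an unadjusted p under 0.05. Of all genes 1.09% rose, 2.72% fell and 16.2% had such an unadjusted edgeR p. With shares of all genes this small, 0 edgeR calls in lists this short do not set them apart. Of 8 genes matched by name as nitrogen and pH regulators 6 were tested and 2 NmrA-like genes fell (33.3%, against 2.72% of all genes). PDE_00796 had 0, 128 and 44 tags and PDE_00801 had 0, 23 and 21 tags in Dmtr23B, Rmtr23B and M12. NmrA-like is a family name here, and a role of these genes in nitrogen control was not tested. PDE_09434, described as the nitrogen metabolite repression regulator NmrA, had 8, 0 and 5 tags in the same order and was not tested by edgeR. PDE_00801 was under 10 TPM in all 3 libraries. The NmrA-like genes did not move together: PDE_04021 stood higher in Dmtr23B at 653, 239 and 196 TPM in the same order (edgeR adjusted p = 0.339). PDE_02575 had 18, 2 and 6 tags and PDE_01002 had 25, 40 and 11 tags, and neither passed edgeR. The pH regulator PacC (PDE_05163) had 43.3, 9.82 and 39.0 TPM, lowest in Rmtr23B. AreA (PDE_03334), the activator of nitrogen genes, had 3, 4 and 2 tags, at or near the floor in every library.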
